A study of Mus musculus with 12 samples.

Results

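Fbp1 and Fbp2 encode the fructose 1,6-bisphosphatases of the mouse and lie next to each other on chromosome 13. Their H3K27ac was taken from every interval of the deposited table whose assigned gene was Fbp1 or Fbp2, which gave 4 of 126464 intervals and 2 of 22264 genes, 3 intervals for Fbp2 and 1 for Fbp1. H3K27ac is an acetylated form of histone H3 carried by active promoters and enhancers, and it was measured by chromatin immunoprecipitation and sequencing in the 4T1 line of mouse mammary carcinoma, labelled wild type in genotype. The groups were vehicle, acetate at 5 mM, etomoxir at 50 µM, etomoxir with acetate, etomoxir with SB204990 at 50 µM, and etomoxir with SB204990 and acetate at these doses, each for 48 h. Each group had 2 libraries, 12 in all, called set 1 and set 2 after the suffixes 0327p19 and 0331p15, which library names share across treatments. Etomoxir blocks carnitine palmitoyltransferase 1, by which mitochondria take up long-chain fatty acids. SB204990 is an inhibitor of ATP citrate lyase, and acetate is a precursor of acetyl-CoA, the acetyl donor for histones. SB204990 was given only together with etomoxir, so its effect alone was not measured. The genes were chosen with their levels across these treatments known, so the values at Fbp1 and Fbp2 are a description and carry no test.

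Fructose 1,6-bisphosphatase removes a phosphate from fructose 1,6-bisphosphate, opposing phosphofructokinase at a committed step of glycolysis, and it is a rate-controlling enzyme of gluconeogenesis that fructose 2,6-bisphosphate inhibits. FBP1 is the main form in liver and kidney, and FBP2 is the form of skeletal muscle. In basal-like breast cancer cells the transcription factor SNAI1, an inducer of the epithelial-mesenchymal transition, is known to silence FBP1.

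The values are spike-in scaled reads: reads in an interval multiplied by a factor per library that the authors derived from added human chromatin. Reads in all intervals ranged from 7179165 to 16676442 per library and factors from 0.398 to 1. The etomoxir + SB204990 library of set 2 had the fewest reads and stood apart, with a mean correlation of 0.915 with the other libraries against 0.949 to 0.958 for the rest. The epithelial genes Epcam, Cdh1, Krt8 and Krt19, 4 of 6 listed, had intervals and averaged 975, 2771, 4048 and 792 scaled reads. No interval carried the symbol Krt7 or Krt18. Of markers of the tissues in which the bisphosphatases are best known, Alb, Ttr, Tat and Myod1 had no interval, Apoa1 averaged 1466 scaled reads, and Ckm, Acta1 and Mylpf averaged 27.4, 42.8 and 25.7. The muscle markers summed to 70.1 and 87.2 in vehicle, 74.4 and 82.3 in etomoxir, and 50.6 and 69.0 in etomoxir + SB204990. Of blood and vessel markers, Ptprc, Cd3e and Cd68 averaged 61.1, 15.5 and 2316, and Pecam1 and Cdh5 averaged 733 and 127. The labels do not say what the suffixes that tell the sets apart stand for, nor whether the sets were separate cultures, so the spread between libraries of a group may be technical. In bulk chromatin fewer acetylated cells and less acetylation per cell cannot be told apart.

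The 2 genes differed in where the mark sat. The main Fbp2 interval, chr13:62856386-62860871 in mm10, was 4486 bp long, and the authors annotated it as promoter-TSS. By GENCODE it held the start site of the coding transcript Fbp2-201 at position 62858422, the first exon and its coding bases, and reached 2449 bp upstream and 2037 bp into the gene. The 2 further Fbp2 intervals, chr13:62860968-62861289 and chr13:62861610-62862177, were intergenic and upstream of it. The Fbp1 interval, chr13:62879479-62881528, 2050 bp long, lay in intron 1 of 6, and its nearer edge was 6754 bp from the start site of the coding transcript Fbp1-201 at position 62888282. No interval of the table lay at that start site. Both genes are on the minus strand, with start sites 29860 bp apart.

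The bases just upstream of each start site are shown because the Fbp2 window lay inside an acetylated interval and the Fbp1 window in none. The RefSeq start of Fbp2 lies slightly farther into the gene than the GENCODE one. Each window is 250 bases of RefSeq sequence in GRCm38.p6, minus strand, written 5′ to 3′ towards the gene, and capitals mark the matched motif letters. The Fbp2 window was chr13:62858401-62858650 and the Fbp1 window chr13:62888283-62888532.
Fbp2: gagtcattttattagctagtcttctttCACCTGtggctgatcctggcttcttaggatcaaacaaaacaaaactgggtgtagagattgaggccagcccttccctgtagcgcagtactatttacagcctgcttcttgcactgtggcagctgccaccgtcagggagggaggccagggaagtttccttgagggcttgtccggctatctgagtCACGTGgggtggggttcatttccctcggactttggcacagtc
Fbp1: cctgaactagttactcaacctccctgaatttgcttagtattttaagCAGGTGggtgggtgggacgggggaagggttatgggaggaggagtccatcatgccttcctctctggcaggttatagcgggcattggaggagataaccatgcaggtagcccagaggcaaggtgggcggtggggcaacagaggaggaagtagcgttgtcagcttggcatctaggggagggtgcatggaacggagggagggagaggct
Both strands were searched for 5 motifs that did not overlap each other in these windows: CAGGTG, an E-box of the type bound by Snail factors, CACGTG, an E-box of the type bound by USF and MYC factors, the cAMP response element TGACGTCA, the forkhead element GTAAACA and the DR1 direct repeat bound by PPAR and RXR. The Fbp2 window held CAGGTG at -223 from the RefSeq start, on the opposite strand and so read as CACCTG above, and CACGTG at -42. The Fbp1 window held CAGGTG at -204. Of 32851 promoter windows of the same length, 17.2% held CAGGTG and 6.02% held CACGTG. The other motifs, present in 1.55%, 3.17% and 0.0335% of promoters in the order above, had no match in either window. A match is a description of letters and no evidence of binding.

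Acetylation of the Fbp2 promoter was lowest in vehicle cells and highest where etomoxir and acetate were combined. The interval carried 29.0 scaled reads in set 1 and 36.4 in set 2 of vehicle (32.7 ± 5.28, SD, n = 2), and 53.1 and 53.4 in acetate (53.3 ± 0.207, SD, n = 2). It carried 92.6 and 85.3 in etomoxir (89.0 ± 5.13, SD, n = 2), and 88.0 and 76.0 in etomoxir + SB204990 (82.0 ± 8.50, SD, n = 2). All libraries with etomoxir were thus above all those without it. With acetate added, values were 167 and 156 in etomoxir + acetate (162 ± 7.44, SD, n = 2) and 144 and 185 in etomoxir + SB204990 + acetate (164 ± 29.1, SD, n = 2). These last 2 groups overlapped, as did etomoxir with etomoxir + SB204990, whereas acetate did not overlap vehicle and no acetate-treated etomoxir library overlapped one without acetate. How many intervals shared these separations by acetate was not counted. Most of the table was higher with acetate, 65.9% of intervals with a mean of at least 10 in 6 of 6 same-set pairs. The separations by acetate are therefore not read as particular to Fbp2. The separation by etomoxir, the 8 libraries with it from 76.0 to 185 and the 4 without it from 29.0 to 53.4, was shared by 57 of 63903 intervals with a mean of at least 10, or 0.0892%, and since the gene was chosen for its levels nothing is read from this count.

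As RPM, reads per 1000000 reads in intervals, a scale with no spike-in factor, the Fbp2 promoter had 4.25 and 4.75 in vehicle, 5.28 and 5.35 in acetate, 11.6 and 10.9 in etomoxir and 12.2 and 12.1 in etomoxir + acetate. It had 16.4 and 10.6 in etomoxir + SB204990, and 16.7 and 16.4 in etomoxir + SB204990 + acetate. On this scale too the 8 libraries with etomoxir, from 10.6 to 16.7, lay above the 4 without it, a separation seen in 1.05% of intervals. Etomoxir and etomoxir + acetate differed less on this scale than on the scaled one, and set 1 of etomoxir + SB204990 sat beside the libraries of the triple treatment while set 2, the library that stood apart, sat beside etomoxir. Counts behind these values were 46 to 222 reads.

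**Figure D1:**
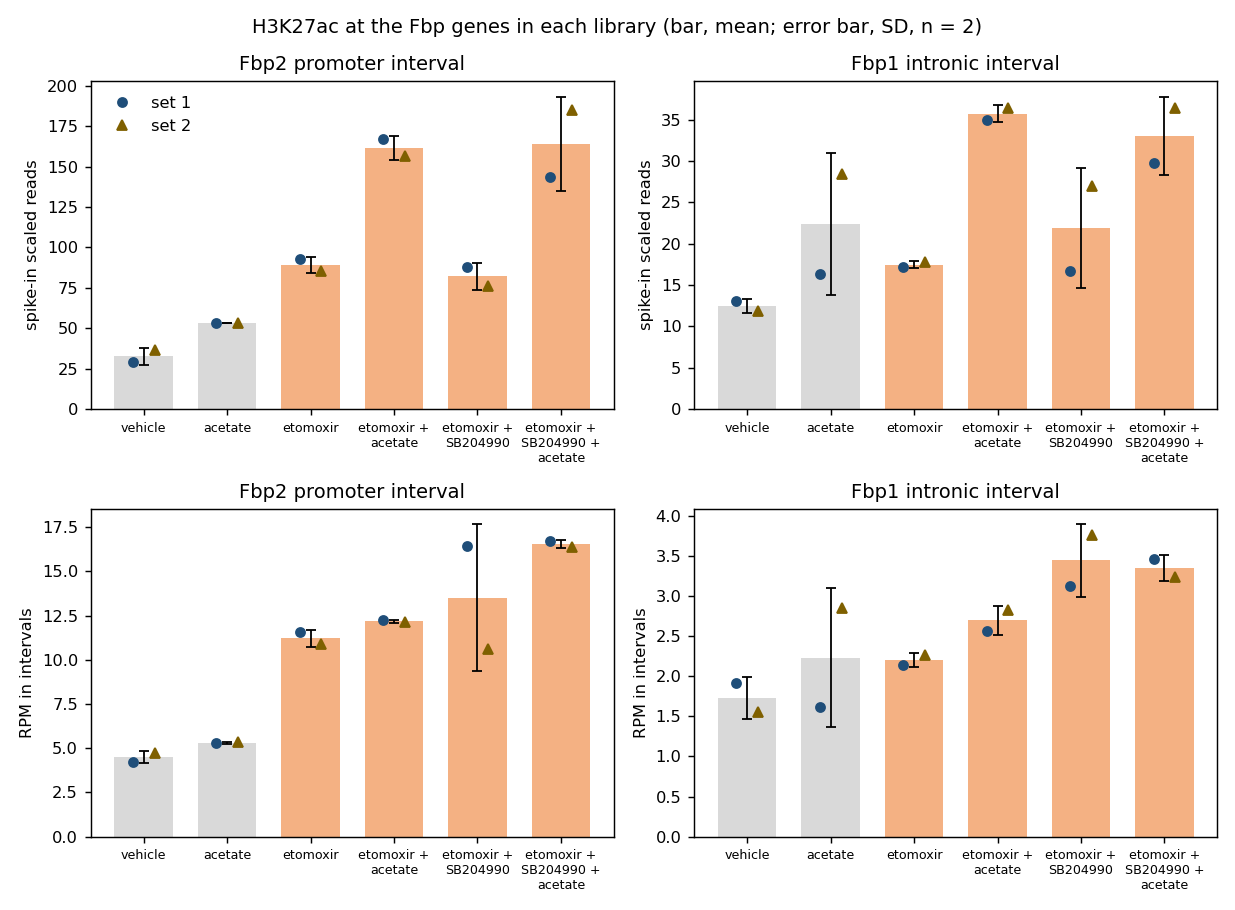
H3K27ac at the Fbp2 promoter interval (left) and the Fbp1 intronic interval (right) by treatment, as spike-in scaled reads (top) and RPM in intervals (bottom); points are the libraries of set 1 and set 2, bars are means and error bars are SD (n = 2), with etomoxir-containing groups in orange. At Fbp2 the libraries with etomoxir lie from 76.0 to 185 scaled reads, above 29.0 to 53.4 without it, while at Fbp1 the ranges overlap.

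The small upstream intervals of Fbp2 held few reads. The nearer one, 322 bp long, had 2.80 and 3.96 scaled reads in vehicle, 3.02 and 5.17 in acetate, 7.43 and 2.86 in etomoxir, 8 and 14.4 in etomoxir + acetate, 2.79 and 5.00 in etomoxir + SB204990, and 4.53 and 13 in etomoxir + SB204990 + acetate. The farther one, 568 bp long, had between 0.797 (set 1 of etomoxir + SB204990) and 12 scaled reads (set 1 of etomoxir + acetate). Both rested on 2 to 15 reads a library, and in both the range with etomoxir overlapped the range without it. Their means of 6.08 and 4.82 were under the minimum of 10 for fitting. Together with them Fbp2 summed to 35.1 and 43.6 scaled reads in vehicle and 106 and 93.3 in etomoxir, and the promoter interval held 89.9% of the gene's total.

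Fbp1 carried less of the mark and separated the treatments less. Its intronic interval had 13.1 and 11.9 scaled reads in vehicle (12.5 ± 0.851, SD, n = 2), 16.3 and 28.4 in acetate (22.4 ± 8.58, SD, n = 2), and 17.1 and 17.8 in etomoxir (17.4 ± 0.429, SD, n = 2). It had 35.0 and 36.5 in etomoxir + acetate (35.7 ± 1.05, SD, n = 2), 16.7 and 27 in etomoxir + SB204990 (21.9 ± 7.26, SD, n = 2), and 29.8 and 36.4 in etomoxir + SB204990 + acetate (33.1 ± 4.72, SD, n = 2). Both vehicle libraries were below every other library, and the libraries with both etomoxir and acetate were above all the rest, an order seen in 0.322% of the 63903 intervals. As the gene was chosen by level, nothing is read from this either. The acetate libraries differed from each other by more than the acetate mean differed from the vehicle mean, and acetate overlapped etomoxir and etomoxir + SB204990. The interval rested on 15 to 46 reads a library, so its level is known less well than that of Fbp2.

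As RPM, Fbp1 had 1.92 and 1.55 in vehicle, 1.62 and 2.85 in acetate, 2.14 and 2.26 in etomoxir and 2.56 and 2.82 in etomoxir + acetate. It had 3.12 and 3.76 in etomoxir + SB204990 and 3.46 and 3.23 in the triple treatment. On this scale the 4 libraries with SB204990 were the highest, and etomoxir + acetate overlapped acetate, so the order of the groups changed with the scale. How many intervals had the libraries with SB204990 highest was not counted. The values rest on 15 to 46 reads a library at a gene chosen by level, so nothing is read from this order.

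Per kilobase, the genes were close to each other without etomoxir and farther apart with it. In vehicle the Fbp2 promoter had 7.29 ± 1.18 (SD, n = 2) scaled reads per kb against 6.09 ± 0.415 for the Fbp1 interval. In etomoxir these levels were 19.8 ± 1.14 and 8.51 ± 0.209, and in the triple treatment 36.6 ± 6.48 and 16.1 ± 2.30. The ratio of the 2 levels within a library, which the spike-in factor cannot change, was 1.01 and 1.40 in vehicle, 1.49 and 0.859 in acetate, and 2.47 and 2.20 in etomoxir. It was 2.18 and 1.96 in etomoxir + acetate, 2.40 and 1.29 in etomoxir + SB204990, and 2.21 and 2.32 in the triple treatment. Only the etomoxir + SB204990 library of set 2, at 1.29, had a ratio within the range of the libraries without etomoxir. Averaged over all libraries, the Fbp2 promoter stood at the 78.3 percentile of all intervals per kb and the Fbp1 interval at the 16.3 percentile.

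The question behind the inhibitor comparisons was how acetylation changes when fatty acid entry into mitochondria is blocked, alone or with citrate lyase. In etomoxir over vehicle the log2 change of Fbp2, summed over its intervals, was 1.33 (SE 0.28), where the median over all 19458 genes fitted was 0.14, and Fbp2 ranked 4 from the top. Etomoxir + SB204990 gave 1.15 (SE 0.28) against a median of -0.18, with rank 69. In the presence of acetate, adding etomoxir gave 1.57 (SE 0.28) against a median of 0.43, with rank 6, and adding both inhibitors gave 1.53 (SE 0.28) against -0.02, with rank 1. The 4 comparisons use vehicle or acetate as control in pairs, so they are not independent of each other. For the promoter interval alone the log2 changes were 1.42, 1.31, 1.58 and 1.59 in the same order.

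Fbp1 moved less in each of these comparisons: its log2 changes were 0.45, 0.73, 0.70 and 0.59, each with an SE of 0.46. Without set 2 or set 1 of etomoxir + SB204990 the second was 0.40 or 1.06. Without set 1 or set 2 of acetate the third was 0.32 or 1.09 and the fourth 0.21 or 0.97. Single libraries thus set much of the size at Fbp1. At Fbp2 the 4 changes ranged from 1.00 to 1.73 when any 1 library was left out.

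Within a set, each inhibitor library could be set beside its control library, each control serving 2 of the pairs, so the pairs are not independent. The Fbp2 promoter was higher in 8 of 8 such pairs, as were 2.19% of intervals, by 2.09- to 3.46-fold, while the scaled total of all intervals changed by 0.784- to 1.36-fold in the same pairs. It was above the fold of the total in 8 of 8, as were 3.75% of intervals. Fbp1 was higher in 8 of 8 pairs as well, by 1.28- to 2.27-fold, and in 7 of 8 its fold was above that of the total, as it was in at least 7 for 12.6% of intervals. These tallies describe genes chosen by level. The pair in which it was not was etomoxir + acetate over acetate in set 2, at 0.993 of the fold of the total.

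With acetate both genes were higher, and so was the table as a whole. Over vehicle, Fbp2 changed by 0.62 (SE 0.28) and Fbp1 by 0.74 (SE 0.46) on the log2 scale, where the median of all genes was 0.48. In etomoxir-treated cells, acetate gave 0.86 for Fbp2 and 0.99 for Fbp1 against a median of 0.79. In cells with both inhibitors it gave 1.00 and 0.61 against 0.64. The acetate libraries were higher in 6 of 6 same-set pairs at each gene, as they were for 65.9% of intervals, by 1.47- to 2.43-fold at the Fbp2 promoter and 1.25- to 2.39-fold at Fbp1, with a fold of the total from 1.30 to 1.7. Divided by the fold of the total, these were 1.02 to 1.55 at Fbp2 and 0.844 to 1.84 at Fbp1, so that Fbp2 was above the total in 6 of 6 pairs, as were 4.79% of intervals, and Fbp1 in 4 of 6, where 45.8% of intervals were above it in at least 4. The highest of these values were those of set 2, for Fbp2 in the triple treatment over etomoxir + SB204990 and for Fbp1 in acetate over vehicle. When each library was scaled by median of ratios, which removes the shift common to all genes, the 3 acetate changes of Fbp2 were 0.14, 0.079 and 0.36 and those of Fbp1 0.29, 0.24 and -0.014.

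Adding SB204990 to etomoxir left Fbp2 near its level under etomoxir. The log2 change was -0.17 (SE 0.28) without acetate and -0.03 (SE 0.28) with it, while the medians of all genes were -0.33 and -0.46. For Fbp1 the changes were 0.27 and -0.11 (SE 0.46). Under median-of-ratios scaling both changes of Fbp2 were positive, 0.15 and 0.43, so no direction is given for the added inhibitor.

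**Figure D2:**
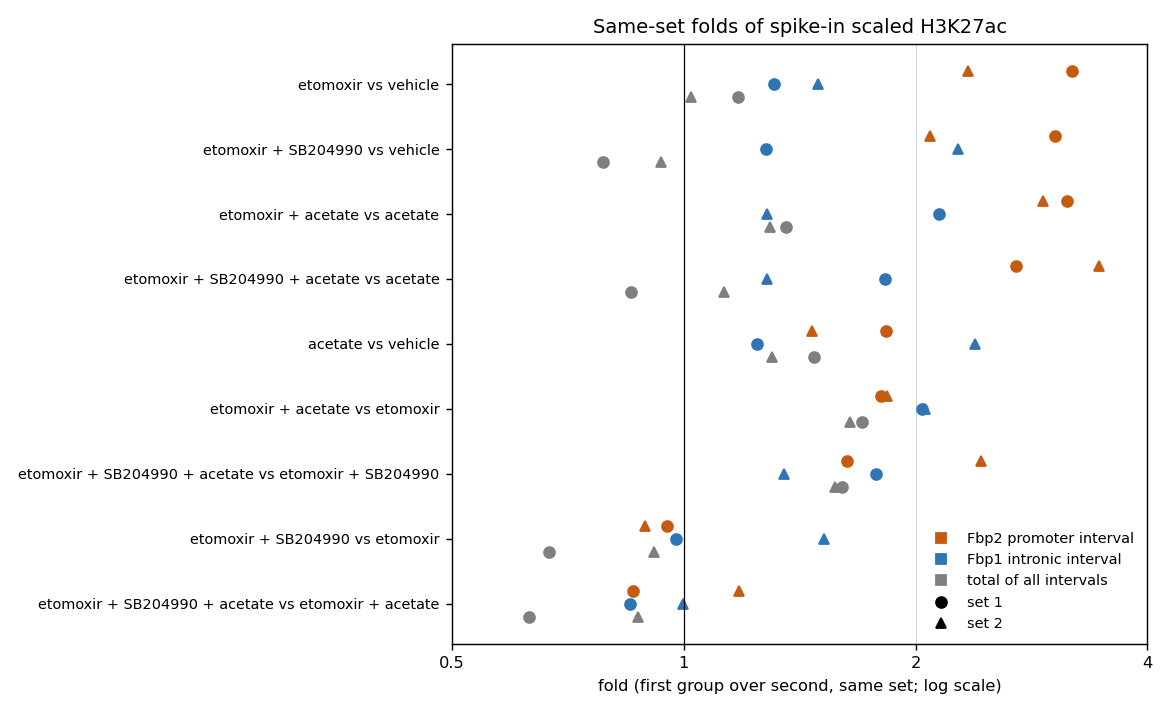
Fold of the first group over the second between libraries of the same set (log axis), for the Fbp2 promoter interval, the Fbp1 intronic interval and the scaled total of all intervals, in 9 comparisons; circles are set 1 and triangles set 2. In the top 4 comparisons Fbp2 lies from 2.09- to 3.46-fold, to the right of the total at 0.784- to 1.36-fold, and in the 3 acetate comparisons Fbp2, Fbp1 and the total lie closer together.

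The acetylated intervals of the Fbp genes stood by themselves. The nearest interval assigned to another gene was 69988 bp away on the side of the Fbp2 3′ end (Gm5141) and 82705 bp away on the side of the Fbp1 start (Gm48812). Within 250 kb there were 20 intervals assigned to 5 other genes, namely 6720489N17Rik, Platr25, Gm5141, Gm48812 and Gm30409, and the authors annotated those given to Gm48812 and Gm30409 as introns or promoters of the gene ENSMUSG00000021458. Summed per gene, mean scaled reads in vehicle and etomoxir were 40.4 and 50.6 for 6720489N17Rik, 71.1 and 84.4 for Platr25, 33.9 and 34.6 for Gm5141, 32.8 and 35.5 for Gm48812 and 167 and 199 for Gm30409.

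Of the 10 neighbouring intervals that reached a mean of 10, none was called by limma with Benjamini-Hochberg adjustment in etomoxir over vehicle (0.0626% of all intervals called), etomoxir + SB204990 over vehicle (0.0532%), etomoxir + acetate over acetate (0.155%) or the triple treatment over acetate (0.0438%). None had an unadjusted p under 0.05 in these comparisons, beside 1.41%, 5.06%, 24.5% and 1.08% of all intervals in the same order, and edgeR and DESeq2 on the recovered reads called 0 as well. Without the set 2 library of etomoxir + SB204990, however, 2 were called lower in etomoxir + SB204990 over vehicle, where 3.92% of all intervals were called lower, and in a fit on the libraries of the comparison alone 1 was called higher in etomoxir + acetate over acetate, where 45.2% of all intervals were. Log2 changes of the 10 ranged from -0.12 to 0.65 for etomoxir, from -0.68 to 0.17 for both inhibitors, from 0.11 to 0.71 for etomoxir with acetate in both groups, and from -0.69 to 0.03 for both inhibitors with acetate in both groups. The Fbp2 promoter was above these ranges in each of the 4 comparisons, as was Fbp1 in the second and the fourth, which is a description since the Fbp genes were chosen by level.

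**Figure D3:**
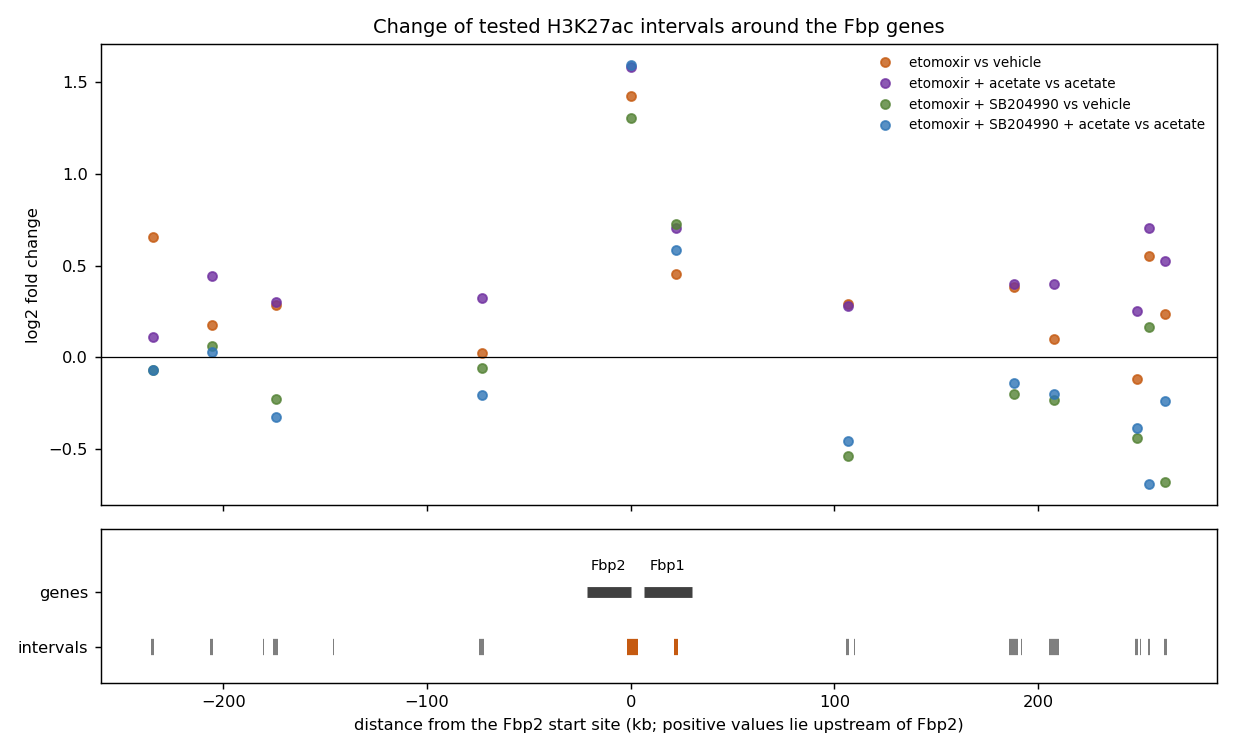
Log2 fold change of the tested intervals around the Fbp genes (top) against distance from the Fbp2 start site in kb, for 4 comparisons, above the 2 genes and all intervals (bottom, Fbp intervals in orange, others in grey). The Fbp2 promoter at 0 kb lies between 1.31 and 1.59 in the 4 comparisons, and the 10 neighbouring intervals lie between -0.69 and 0.71.

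Genes that work beside fructose bisphosphatase were taken from a list of 27: phosphofructokinases, the enzymes that make and remove fructose 2,6-bisphosphate, aldolases, other gluconeogenic enzymes and regulators of gluconeogenesis. Of these, 20 had an interval and 19 reached a mean of 10. Among those with no interval under their symbol were the genes for pyruvate carboxylase (Pcx), the glucose 6-phosphatases G6pc and G6pc2, Pfkfb1 and the regulators Hnf4a and Klf15. Pck1, cytosolic phosphoenolpyruvate carboxykinase, had a mean of 3.24 scaled reads.

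None of the 19 was called in etomoxir over vehicle, where 0.0154% of all genes were called, nor in etomoxir + SB204990 over vehicle (0.00514%), etomoxir + acetate over acetate (0.0771%) or the triple treatment over acetate (0.0514%). The numbers with an unadjusted p under 0.05 were 0, 0, 8 and 0 of the 19, beside 0.684%, 4.24%, 32.6% and 0.678% of all genes. edgeR and DESeq2 on the recovered reads called 0 in each. In a fit on the libraries of the comparison alone, 18 were called higher in etomoxir + acetate over acetate, as were 73.1% of all genes. The list medians were 0.14, -0.20, 0.45 and -0.02 on the log2 scale against 0.14, -0.18, 0.43 and -0.02 for all genes. The smallest p-values belonged to Nr3c1, the glucocorticoid receptor (0.31), and Pfkm, the muscle phosphofructokinase (0.22), in the first comparison, and to Aldoa, aldolase A (-0.33), and Pfkm (-0.33) in the second, these being log2 changes. In the third they belonged to G6pc3, the widely expressed glucose 6-phosphatase (0.49), and Gpi1, glucose 6-phosphate isomerase (0.45), and in the fourth to Snai1 (0.54) and Aldoc, aldolase C (0.21). The Fbp2 changes of 1.33, 1.15, 1.57 and 1.53 exceeded the highest list value in each comparison, 0.38, 0.07, 1.08 and 0.54, and this too describes a gene chosen by level.

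In the 3 acetate comparisons the list medians were 0.46, 0.80 and 0.68 on the log2 scale, against 0.48, 0.79 and 0.64 for all genes. In acetate over vehicle limma called 0 of the 19, and 0% of all genes, with 9 of the 19 and 42.9% of all genes at an unadjusted p under 0.05. There edgeR called 0 of the list and 0% of all genes. DESeq2 called 6 higher, and 19.1% of all genes, the fit on the libraries of the comparison alone 12, and 61.5%, and a fit with the set as a block 4, and 20.0%. The smallest p-values there belonged to Pfkp, the platelet phosphofructokinase, with 0.58, and Pfkfb2 with 0.51. In etomoxir + acetate over etomoxir, all 19 changes were positive and 16 of 19 were called higher, where 78.2% of all genes were called higher. Fewer of the 19 were called when any 1 library of the comparison was left out. Among the called genes the largest changes were those of Snai1, at 1.41 (SE 0.53, limma adjusted p = 0.0194), Foxo1, a forkhead regulator of gluconeogenesis, at 1.31 (SE 0.50, adjusted p = 0.0218), and Cebpb, a transcription factor of gluconeogenic tissues, at 1.24 (SE 0.41, adjusted p = 0.0110). Levels of these genes were low, with means of 25.7, 20.9 and 39.8 scaled reads over all libraries. Snai1 had 22.9 and 13.2 in etomoxir and 49.0 and 47.0 in etomoxir + acetate.

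In the triple treatment over etomoxir + SB204990, all 19 changes were positive and 11 of 19 were called higher, where 57.7% of all genes were called higher. This number was 19 without the set 2 library of etomoxir + SB204990, when 91.4% of all genes were called higher, 6 without its set 1 library, with 19.1%, and 0 without the set 2 library of the triple treatment, with 0%. A fit on the libraries of the comparison alone called 0, and 0% of all genes. Among the called genes the largest changes were 1.26 for Snai1 (SE 0.53, adjusted p = 0.0430), 0.85 for Aldoa (SE 0.17, adjusted p = 0.00653) and 0.73 for G6pc3 (SE 0.20, adjusted p = 0.00862), all from limma. Under median-of-ratios or total-sum scaling, which take out the rise common to all genes, 0 of the 19 and 0% of all genes were called higher in either comparison.

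**Figure D4:**
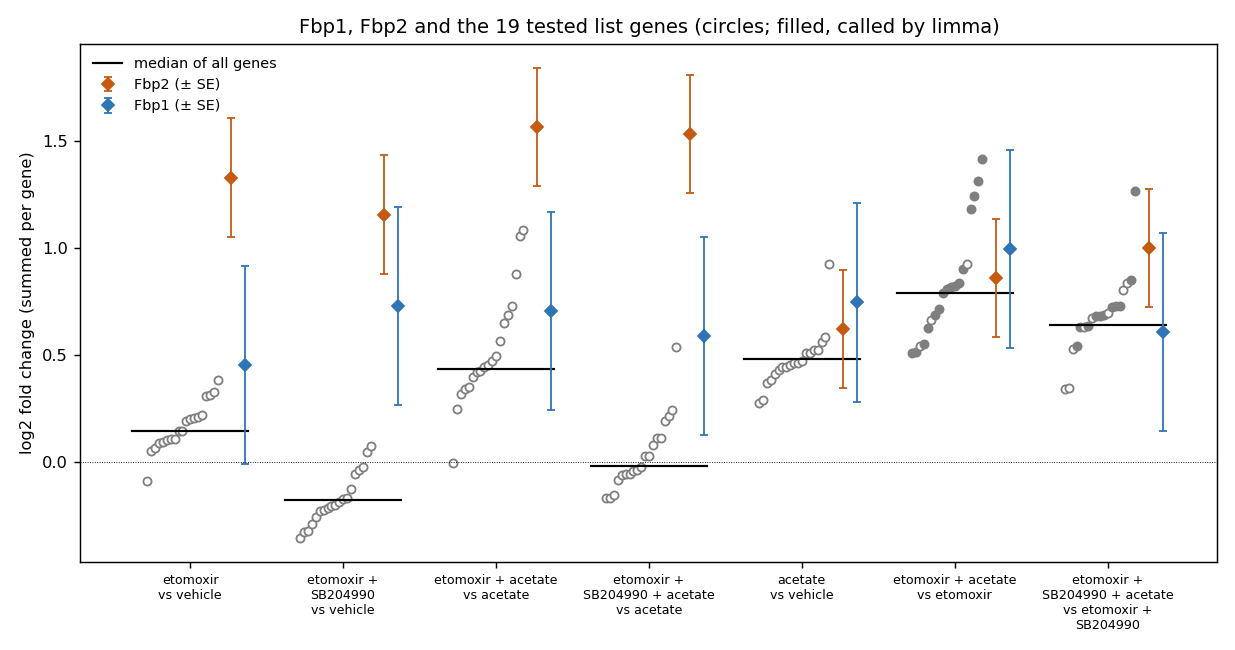
Log2 fold change of H3K27ac summed per gene in 7 comparisons for Fbp2 and Fbp1 (diamonds with SE) and the 19 tested list genes (circles, filled where limma called them), with the median of all genes as a line. Fbp2 lies at 1.15 to 1.57 in the 4 inhibitor comparisons, above the list genes, and the list genes lie around the median of all genes throughout.

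The genes whose profile over the 12 libraries was most like that of Fbp2, by Pearson's r of the log2 level less the library median among 15533 genes with a mean of at least 50, were Acot2 (0.986), Cpt1a (0.979), Trim25 (0.978), Impa2 (0.976) and 4931413I07Rik (0.975). Over the 8 libraries with etomoxir alone, r was 0.952, 0.864, 0.933, 0.836 and 0.761. Cpt1a, which encodes a carnitine palmitoyltransferase that etomoxir inhibits, carried 941 ± 186 (SD, n = 2) scaled reads in vehicle and 1660 ± 13.8 in etomoxir. Acot2, an acyl-CoA thioesterase of mitochondria, carried 168 ± 27.1 and 355.5 ± 9.60.

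For Fbp1 the most alike genes were Snai3 (0.900), Gm12714 (0.894), Aldh9a1 (0.883), Gm13262 (0.883) and Ccdc181 (0.868), among 15534. Snai3, a member of the Snail family, carried 354 ± 55.7 (SD, n = 2) scaled reads in vehicle and 802 ± 15.0 in etomoxir + acetate. The profiles of Fbp1 and Fbp2 themselves correlated at 0.720 over the 12 libraries and 0.471 over the 8 with etomoxir. All of these are descriptions over libraries that share treatment, set and depth.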

How the data were processed

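The data were H3K27ac libraries of 4T1 cells, 2 for each of 6 treatments. Per the labels, the authors sheared chromatin with micrococcal nuclease, added 7.5% human chromatin and aligned paired-end reads to merged GRCh38 and mm10 genomes. The deposited signal of an interval is its read count multiplied by a spike-in factor. In the 2 libraries with a factor of 1 the deposited values were counts, and elsewhere 100% of values were whole multiples of 1 step (tolerance 0.02), which gave back the reads. The factor was 1 once in each set, so each set may have its own scale. No value column was left unused, and no input was subtracted.

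Signal was summed per gene symbol as the authors assigned it. Features with a mean of at least 10 were fitted as log2(value + 1) with limma 3.58.1 (trend, R 4.3.3) on 6 group means of all 12 libraries, without a set block, with Benjamini-Hochberg adjustment over all features and calls under 0.05. Fold changes are thus on the log2(value + 1) scale and understate low features. The fit was tested on simulated counts with the same dispersion for all genes and changed genes in etomoxir only. These counts had no shift common to all genes, no difference between sets and no outlying library, so the test does not cover those. The alternatives were edgeR 4.0.16 and DESeq2 1.42.0 on recovered reads, other scalings, filters and pseudocounts, a set block, only the libraries compared, and leaving out each library. The members and lists were chosen with earlier results of these data known. Among list genes the text names up to 3 called with the largest change, or the 2 with the smallest p where none was called, and for likeness the 5 highest correlations. The separation of libraries with and without etomoxir was added after the data were seen. Library names tie each set together across treatments, but what the suffix marks is not given in the labels, and over 15 pairs of groups the deviations of same-set libraries correlated from -0.225 to 0.601, 4 above 0.1. The set was therefore kept as an alternative block. Shares of all features called under the alternatives, and of intervals with the orders and same-set tallies of the Fbp genes, were added after the data were seen. Start sites came from the GENCODE annotation, and motif shares from the RefSeq promoter table.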

Additional observations from a re-analysis of the deposited data

How the results depend on the processing

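Fbp2 and Fbp1 kept the direction of their change, not taken relative to other genes, in the inhibitor and acetate comparisons under every alternative except the 2 below for Fbp1. The sizes moved with the scaling in some comparisons and with single libraries in others. With each library's share of reads times its factor, Fbp2 gave 1.11 for etomoxir over vehicle, 1.43 for etomoxir + SB204990 over vehicle and 0.40 for acetate over vehicle. Under median-of-ratios and total-sum scaling, Fbp2 gave 1.34 and 1.38 for etomoxir + SB204990 over vehicle and 1.13 and 1.16 for etomoxir + acetate over acetate, where Fbp1 gave 0.28 and 0.31. For acetate over vehicle they gave 0.14 and 0.16 for Fbp2 and 0.29 and 0.30 for Fbp1, and for etomoxir + acetate over etomoxir 0.079 and 0.12 for Fbp2 and 0.24 and 0.28 for Fbp1. For the triple treatment over etomoxir + SB204990 they gave 0.36 and 0.34 for Fbp2, and Fbp1 reversed to -0.014 and -0.034, while share times factor gave 0.58 for Fbp2 and 0.20 for Fbp1. Relative to the median of all genes, Fbp2 stayed between 1.11 and 1.25 for etomoxir over vehicle, 0.99 and 1.66 for etomoxir + SB204990 over vehicle, 1.08 and 1.15 for etomoxir + acetate over acetate and 1.49 and 1.58 for the triple treatment over acetate in all alternatives. Relative to that median Fbp1 had no stable sign in 3 comparisons, from -0.10 to 0.63 for etomoxir + acetate over acetate, -0.10 to 0.62 for acetate over vehicle and -0.093 to 0.020 for the triple treatment over etomoxir + SB204990.

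Adding SB204990 to etomoxir had no stable direction. Fbp2 turned from -0.17 to 0.15, 0.18 and 0.32 under median of ratios, total sum and share times factor, and Fbp1 from 0.27 to -0.057 without set 2 of etomoxir + SB204990, in a range of -0.057 to 0.60 over libraries left out. With acetate present, Fbp2 turned to 0.43, 0.40 and 0.012 under these scalings, to 0.012 without set 1 of etomoxir + acetate and to 0.17 without set 1 of the triple treatment, and Fbp1 to 0.33 and 0.30 under the first 2 scalings and 0.027 without the latter library. Over libraries left out, the ranges there were -0.23 to 0.17 for Fbp2 and -0.26 to 0.027 for Fbp1. The cause was not tested.

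With 1 library left out at a time, Fbp1 ranged from 0.40 to 1.06 for etomoxir + SB204990 over vehicle, 0.32 to 1.09 for etomoxir + acetate over acetate, 0.21 to 0.97 for the triple treatment over acetate, 0.36 to 1.13 for acetate over vehicle and 0.28 to 0.94 for the triple treatment over etomoxir + SB204990. In the third and the last of these Fbp2 ranged from 1.33 to 1.73 and from 0.80 to 1.2. Called list genes ranged from 6 to 12 for etomoxir + acetate over etomoxir and from 0 to 19 for the triple treatment over etomoxir + SB204990, and neighbouring intervals from 0 to 2 for etomoxir + SB204990 over vehicle.

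The list count was 0 in the last 2 acetate comparisons under median of ratios, total sum and share times factor, and 0 in the last of them on its own libraries, against 16 and 11. On the libraries compared alone, it was 18 for etomoxir + acetate over acetate and 12 for acetate over vehicle, where DESeq2 gave 6, and 1 neighbouring interval was called for etomoxir + acetate over acetate. With a replicate block on the set, the list count for acetate over vehicle was 4 against 0, and the block moved no other count of list genes or neighbouring intervals by over 1.5 times. Over all genes it moved the calls from 3 to 17 for etomoxir over vehicle, 1 to 18 for etomoxir + SB204990 over vehicle, 15 to 61 for etomoxir + acetate over acetate and 0 to 3888 for acetate over vehicle. Over all intervals it moved them from 34 to 92 for etomoxir + SB204990 over vehicle and 99 to 173 for etomoxir + acetate over acetate. Intervals in which every etomoxir library was above every other numbered 57, or 59 without set 2 of etomoxir + SB204990, and 674 and 754 as RPM. At a minimum mean of 50 Fbp1 dropped out.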
